A study of Drosophila melanogaster with 24 samples.

Results

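Peaks of 2 histone marks that lie on the Y chromosome, on sequences the dm6 assembly places on no chromosome arm, or on the mitochondrial genome were gathered from 16 peak lists of fly heads. They were chosen by sequence name alone: every peak outside 2L, 2R, 3L, 3R, 4 and X was taken, which gave 447 of 162547 peaks. Of these, 210 came from H3R17me2, asymmetric dimethylation of an arginine of histone H3, and 237 from H3K27me3, trimethylation of a lysine of the same histone. By sequence, 152 peaks were on Y, 88 on 26 unlocalized sequences assigned to Y, 168 on 51 unplaced sequences, 29 on 19 unlocalized sequences of other chromosomes and 10 on the mitochondrial genome. The mitochondrial genome is neither Y nor unplaced and entered only because the choice was by name, so its values are also given apart.

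Chromatin was prepared from heads of males, 25 heads per sample, at 2 ages and in 2 genotypes: 40-day-old LKRSDH MB01942 mutants, 40-day-old w1118 controls, 3-day-old LKRSDH MB01942 mutants and 3-day-old w1118 controls. All heads were collected at the same time of day. LKRSDH encodes lysine ketoglutarate reductase/saccharopine dehydrogenase, an enzyme of lysine breakdown, and in MB01942 the gene is disrupted by an insertion marked with GFP. Mutants had been repeatedly crossed back to w1118, so both genotypes share that background. Each mark had 2 libraries per condition, 8 per mark, and 8 inputs served the authors' peak calling. The study asked how H3R17me2 and H3K27me3 relate along the chromosomes with age and LKRSDH. The study's methods call the 2 libraries of a condition biological replicates, and do not say how their flies were kept apart.

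The fly Y is almost wholly heterochromatic and is known for a small set of genes that act in the male germ line, among them kl-2, kl-3 and kl-5, which encode dynein heavy chains of the sperm tail. It also carries the Su(Ste) repeats, whose small RNAs silence the Stellate genes of the X chromosome in testis. H3K27me3 is laid down by the Polycomb repressive complex that contains E(z), and asymmetric H3R17me2 by arginine methyltransferases of the CARM family, Art4 in flies. Unplaced sequences are mostly repeats, and a read that fits several copies of a repeat cannot be placed with certainty. How the aligner's choice among such places was handled is not given in the sources used here.

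Several of the Y regions that recurred in 6 to 8 lists, of the 8 with any Y peak, matched repeated families. A region at chrY:854418-855715 and one at chrY:924508-925501 matched each other on opposite strands over 1033 aligned positions at 87.9% identity. Neither carries an annotation, and the second, which lies 1672 bp from a copy of the hoppel element, is named by it below. Both also matched Su(Ste) copies, at up to 98.7% and 93.9% identity, and 13 Stellate genes of the X chromosome, at 86.6 to 87.8% and at 82 to 83% identity. They are shown because they were under a peak in 6 and 8 of the 16 lists. The stretches below are from the RefSeq dm6 assembly, at Y 855017 to 855256 on the plus strand and at Y 925020 to 925228 on the minus strand. Capitals mark the longest run identical in both, 114 bases.
Unannotated region: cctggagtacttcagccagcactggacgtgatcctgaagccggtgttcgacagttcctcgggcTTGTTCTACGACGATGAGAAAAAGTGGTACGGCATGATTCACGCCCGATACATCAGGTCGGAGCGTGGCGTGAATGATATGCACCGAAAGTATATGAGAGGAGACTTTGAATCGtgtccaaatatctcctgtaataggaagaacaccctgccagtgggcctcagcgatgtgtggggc
Region near hoppel: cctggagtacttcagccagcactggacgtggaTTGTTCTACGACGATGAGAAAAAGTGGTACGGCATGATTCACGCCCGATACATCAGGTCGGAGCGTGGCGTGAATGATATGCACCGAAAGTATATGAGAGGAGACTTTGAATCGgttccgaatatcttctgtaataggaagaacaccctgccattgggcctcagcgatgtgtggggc

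A second pair lies in the pseudogene block at the other end of the assembled Y. The region at chrY:3258316-3260572 overlaps the pseudogene CR46150, and the region at chrY:3264925-3266511 overlaps the pseudogene CR41423. They were under a peak in 8 and 7 lists and matched each other on opposite strands over 326 positions at 90.5% identity. The stretches lie at Y 3259427 to 3259665 on the plus strand and at Y 3266197 to 3266425 on the minus strand, with the longest identical run, 55 bases, in capitals.
CR46150 region: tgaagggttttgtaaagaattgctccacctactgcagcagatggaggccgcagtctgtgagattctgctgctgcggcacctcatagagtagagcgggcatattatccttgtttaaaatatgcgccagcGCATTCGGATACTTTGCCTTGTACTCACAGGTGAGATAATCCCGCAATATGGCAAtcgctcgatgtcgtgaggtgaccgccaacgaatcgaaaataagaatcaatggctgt
CR41423 region: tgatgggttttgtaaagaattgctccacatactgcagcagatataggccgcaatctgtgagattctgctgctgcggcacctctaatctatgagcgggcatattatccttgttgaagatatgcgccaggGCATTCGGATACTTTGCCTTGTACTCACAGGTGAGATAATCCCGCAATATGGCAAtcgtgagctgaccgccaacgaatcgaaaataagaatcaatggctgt
Of the 47 Y regions obtained by merging the peaks of all lists, 27 matched another of the 47 over at least 300 positions at 85% identity or more.

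The number of peaks on these sequences differed widely between libraries of one condition. H3R17me2 had 12 and 9 peaks in 40-day-old mutants and 95 and 3 in 40-day-old controls. In 3-day-old flies it had 41 and 2 in mutants and 45 and 3 in controls. H3K27me3 had 15 and 0 peaks in 40-day-old mutants and 68 and 59 in 40-day-old controls, and 8 and 35 in 3-day-old mutants and 52 and 0 in 3-day-old controls. In each pair the first value is replicate 1. Every H3R17me2 library of replicate 2 had fewer than 10 such peaks, and 2 H3K27me3 libraries had none, and the closest pair of H3K27me3 libraries was that of the 40-day-old controls. Peaks on these sequences made up 0.0117 to 0.894% of the H3R17me2 lists and 0 to 1.14% of the H3K27me3 lists.

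**Figure D1:**
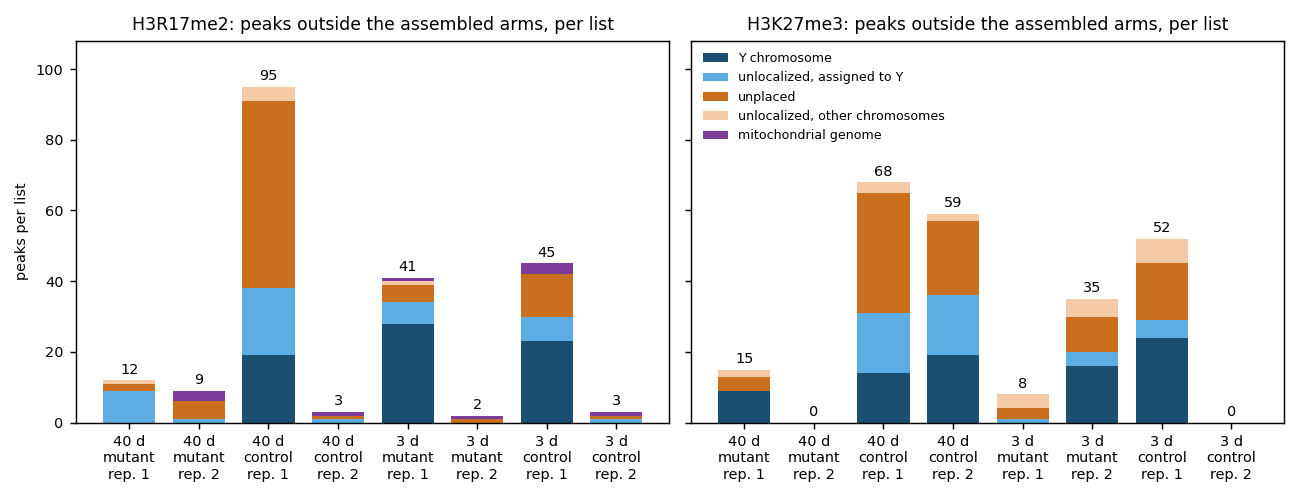
Number of peaks per list on sequences outside 2L, 2R, 3L, 3R, 4 and X, stacked by kind of sequence, for H3R17me2 (left) and H3K27me3 (right). The 40-day-old control library of replicate 1 has the tallest H3R17me2 bar, 95 peaks, and 2 H3K27me3 libraries have none.

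On Y itself, 8 of the 16 lists held a peak. H3R17me2 had 19 Y peaks in replicate 1 of the 40-day-old controls, 28 in replicate 1 of the 3-day-old mutants and 23 in replicate 1 of the 3-day-old controls, and none in the other 5 libraries. H3K27me3 had 9 and 0 Y peaks in 40-day-old mutants and 14 and 19 in 40-day-old controls, and 0 and 16 in 3-day-old mutants and 24 and 0 in 3-day-old controls. Where Y held peaks, they covered 29.4 to 50.7 kb with H3R17me2 and 13.6 to 37.6 kb with H3K27me3, out of 3.67 Mb. Libraries with and without Y peaks occurred within the same condition in 6 of the 8 pairs of libraries.

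For H3K27me3, the lists without Y peaks had more of X under peaks, while for H3R17me2 the 2 sets of lists overlapped. Of the autosomal sequence, 18.9 to 43.0% lay under H3R17me2 peaks in the 8 libraries, against 0 to 0.674% of X. For H3K27me3 the shares were 25.4 to 39.3% of the autosomes and 8.16 to 14.9% of X. The 3 H3K27me3 libraries with no Y peak had 3500 kb (40-day-old mutant, replicate 2), 2640 kb (3-day-old mutant, replicate 1) and 3088 kb (3-day-old control, replicate 2) of X under peaks. The 5 with Y peaks had 1921 to 2516 kb of X under peaks, so the 2 sets did not overlap in these lists. The H3R17me2 libraries with Y peaks had 79.9 to 123 kb of X under peaks, against 0 to 159 kb in the other 5, and overlapped. This split by Y peaks was made after the values were seen, and neither it nor its part in the Y counts was tested.

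**Figure D2:**
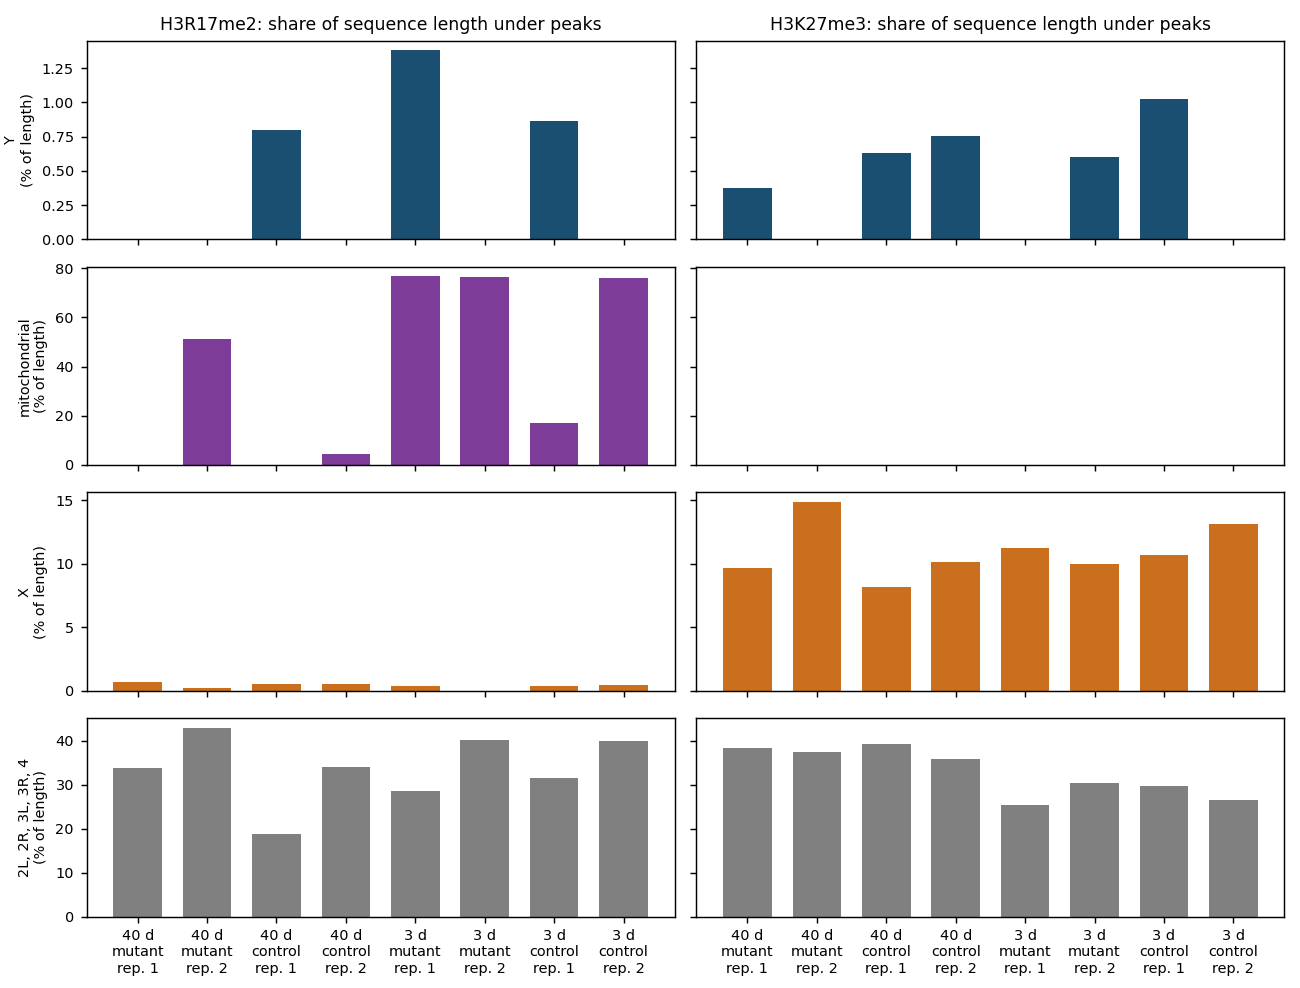
Share of the length of Y, the mitochondrial genome, X and the autosomal sequences under peaks in each list, in percent, for H3R17me2 (left) and H3K27me3 (right); each row has its own axis, which starts at 0. H3R17me2 peaks cover 18.9 to 43.0% of the autosomes and less than 1% of X, and no H3K27me3 list has a mitochondrial peak.

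No difference between the marks exceeded the spread between lists. H3R17me2 had 26.3 ± 32.7 peaks per list and H3K27me3 29.6 ± 27.5 (SD, n = 8 each), a difference of -3.38 peaks with p = 0.826 after Benjamini-Hochberg adjustment (two-sided exact permutation test). The covered length was 47.0 ± 44.8 kb for H3R17me2 and 40.9 ± 38.4 kb for H3K27me3 (SD, n = 8 each), a difference of 6.04 kb with an adjusted exact permutation p of 0.826. The median fold enrichment, the ratio of immunoprecipitated to input signal, was 1.56 ± 0.217 for H3R17me2 (SD, n = 8) and 1.71 ± 0.215 for H3K27me3 (SD, n = 6, since 2 lists had no such peak). That difference of -0.15 had an adjusted exact permutation p of 0.693. The direction of the first 2 differences turned under several alternatives, so no order of the marks is given.

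No age or genotype difference passed the test either. H3K27me3 covered 19.7 and 0 kb in 40-day-old mutants and 93.3 and 84.0 kb in 40-day-old controls, and 8.99 and 53.5 kb in 3-day-old mutants and 68.0 and 0 kb in 3-day-old controls. The mean over 4 libraries was 20.5 ± 23.4 kb in mutants and 61.3 ± 42.2 kb in controls (SD, n = 4 each), which differed by -40.8 kb with an exact permutation p of 0.171 and 1 after adjustment over 8 tests. The 40-day-old libraries of this mark averaged 49.3 ± 46.4 kb and the 3-day-old ones 32.6 ± 33.2 kb (SD, n = 4 each; exact permutation p = 0.571). The ranges overlapped in both contrasts. Leaving out 1 library moved the age difference of 16.7 kb to between 1.97 kb, without replicate 1 of the 40-day-old controls, and 33.1 kb, without replicate 2 of the 40-day-old mutants. The age difference was also 5.07 kb without replicate 2 of the 40-day-old controls, 5.78 kb without replicate 2 of the 3-day-old controls, 8.78 kb without replicate 1 of the 3-day-old mutants, 28.4 kb without replicate 1 of the 3-day-old controls and 26.5 kb without replicate 1 of the 40-day-old mutants. The genotype difference ran from -61.2 kb, without replicate 2 of the 3-day-old controls, to -30.1 kb, without replicate 1 of the 40-day-old controls. Within the 40-day-old flies alone, mutants averaged 9.87 kb and controls 88.7 kb, and within the controls alone, 40-day-old flies averaged 88.7 kb and 3-day-old flies 34.0 kb. In both the libraries of the groups did not overlap, but 2 against 2 libraries cannot reach the threshold of 0.05 in an exact permutation test. In 3-day-old flies mutants averaged 31.2 kb and controls 34.0 kb, and the groups overlapped.

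H3R17me2 covered 19.7 and 23.8 kb in 40-day-old mutants and 131 and 6.31 kb in 40-day-old controls, and 89.3 and 17.5 kb in 3-day-old mutants and 70.7 and 17.6 kb in 3-day-old controls. The 4 mutant libraries averaged 37.6 ± 34.6 kb and the 4 control libraries 56.4 ± 57.1 kb (SD; exact permutation p = 0.686), and the direction turned when the 40-day-old control library of replicate 1 was left out (6.0 kb). The 40-day-old libraries averaged 45.2 ± 57.6 kb and the 3-day-old ones 48.8 ± 36.9 kb (SD, n = 4 each; exact permutation p = 0.886). Replicate 1 of this mark averaged 77.7 kb and replicate 2 16.3 kb over the 4 conditions, a larger gap than that of either contrast. The median folds of the peaks gave no call for age or genotype with either mark, with differences of -0.11 to 0.03 and exact permutation p-values of 0.6 to 1.

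Across windows of 5 kb, a window was called when its covered length in the 4 libraries of one group did not overlap that in the 4 of the other. None of the 3139 windows on Y, unplaced and mitochondrial sequences was called for either mark in either contrast. Over all 29918 windows, the share called was 6.14% for H3K27me3 at 40 d against 3 d, 0.324% for H3K27me3 in mutants against controls, 1.93% for H3R17me2 at 40 d against 3 d and 1.61% for H3R17me2 in mutants against controls. A call needs coverage in all 4 libraries of a group. No window here had that for H3K27me3 in either contrast or for H3R17me2 in mutants against controls, and for H3R17me2 at 40 d against 3 d only 3 mitochondrial windows did. The count of 0 was thus fixed for Y and the unplaced sequences and says nothing about change there.

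Peaks were sparse and mostly shorter here, and their median fold was higher than on the assembled chromosomes. The median peak length per list was 1056 to 8726 bp here and 1495 to 2263 bp on the assembled chromosomes for H3R17me2, shorter here in 7 of 8 lists. For H3K27me3 it was 756.5 to 1274 bp here and 2257.5 to 2972 bp on the assembled chromosomes, shorter here in 6 of 6 lists. The highest single fold of a list was on the assembled chromosomes in 5 of 8 H3R17me2 lists and in 4 of the 6 H3K27me3 lists. On these sequences 0.477 ± 0.455% of the length lay under H3R17me2 peaks, against 27.9 ± 6.35% of the assembled chromosomes (SD, n = 8 lists), and 0.416 ± 0.390% under H3K27me3 peaks, against 29.0 ± 4.47%. The share was lower in 8 of 8 lists for each mark (two-sided exact sign-flip permutation test over lists, adjusted p = 0.0182 for both). The H3R17me2 difference turned when only peaks below a q-value of 0.05 were kept, to 0.172 percentage points more here (adjusted exact permutation p = 0.0273). The median H3K27me3 fold was 1.71 ± 0.215 here and 1.41 ± 0.0295 on the assembled chromosomes (SD, n = 6), higher in 6 of 6 lists (adjusted exact permutation p = 0.0365). The median H3R17me2 fold was 1.56 ± 0.217 here and 1.39 ± 0.0686 on the assembled chromosomes (SD, n = 8), higher in 6 of 8 lists (adjusted exact permutation p = 0.0469). The H3R17me2 excess was -0.10 among peaks with a q-value under 0.05, and it lost its call when each list was held to an equal number of top peaks (0.16, adjusted exact permutation p = 0.102). The H3R17me2 call also ended on leaving out any of 6 of the 8 libraries, and the H3K27me3 call on leaving out any of its 6, since 5 lists cannot reach the threshold. With Y alone, both excesses lost their calls, at 0.16 for H3R17me2 in 3 lists and 0.12 for H3K27me3 in 5 lists. With that q-value threshold the H3K27me3 excess was 0.29 (adjusted exact permutation p = 0.146).

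**Figure D3:**
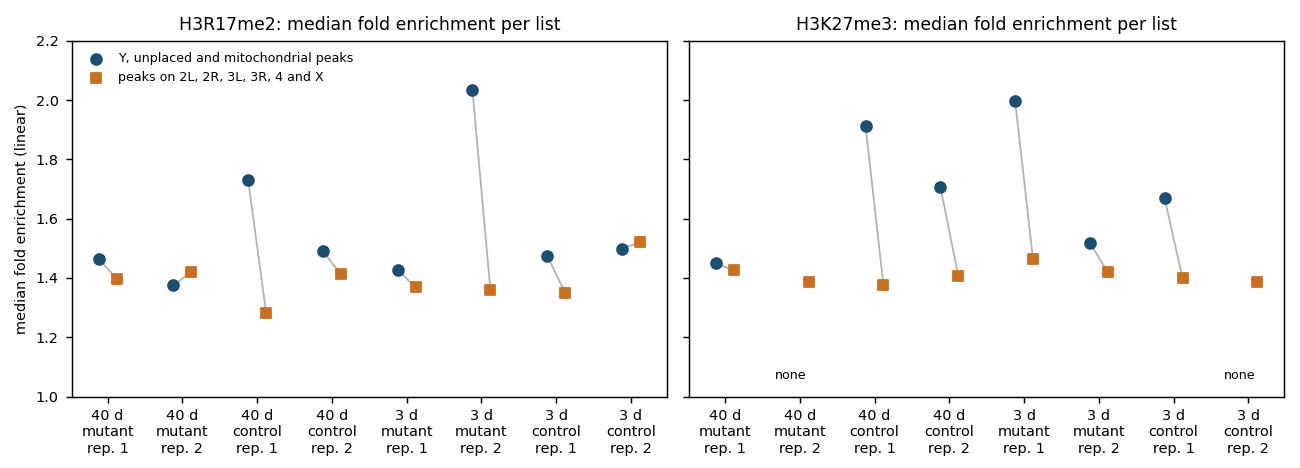
Median fold enrichment per list of peaks on Y, unplaced and mitochondrial sequences (circles) and of peaks on the assembled chromosomes (squares), joined per list, on a linear axis that starts at 1. For H3K27me3 the circle is above the square in 6 of 6 lists, and for H3R17me2 in 6 of 8; "none" marks lists without such a peak.

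A larger share of these peaks passed a false discovery rate threshold. Among H3R17me2 peaks only 209 of 119964 had a q-value under 0.05, and 82 of those 209, or 39.2%, lay on these sequences, which held 0.175% of the peaks. One library, replicate 1 of the 40-day-old controls, gave 57 of the 82, and without it 25 of 79 (31.6%) lay here. The 82 were 58 peaks on unplaced and unlocalized sequences, 15 on Y and 9 on the mitochondrial genome. Per list, 38.9 ± 19.7% of the H3R17me2 peaks here and 0.130 ± 0.232% of those on the assembled chromosomes passed (SD, n = 8; higher in 8 of 8 lists, adjusted exact permutation p = 0.0182). Each list counts equally in this mean, and some held few peaks here. In replicate 2, 2 of 3 passed in 3-day-old controls and 1 of 2 in 3-day-old mutants. In replicate 1, 4 of 41 passed in 3-day-old mutants and 57 of 95 in 40-day-old controls. Without the mitochondrial genome the H3R17me2 excess was 22.1 percentage points in place of 38.8 (adjusted exact permutation p = 0.0312). For H3K27me3, 69.2 ± 22.6% here and 17.8 ± 7.22% on the assembled chromosomes passed (SD, n = 6; higher in 6 of 6 lists, adjusted exact permutation p = 0.0365). With Y alone these excesses were 23.4 percentage points for H3R17me2 and 38.4 for H3K27me3, without a call (adjusted exact permutation p = 0.292 and 0.146). Of all H3K27me3 peaks under that threshold, 176 of 9382 (1.88%) lay here.

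The peak with the lowest q-value of a list lay on these sequences in 6 of the 8 H3R17me2 lists and in 2 of the 8 H3K27me3 lists. It was on the unplaced sequence chrUn_CP007120v1 in 4 of these lists, both 40-day-old control lists of H3K27me3 among them, and on the mitochondrial genome in the other 4. The lowest q-value here was that of chrUn_CP007120v1:71665-76130 in replicate 1 of the 40-day-old controls of H3R17me2, with a fold of 3.15 and a -log10 q of 136. The H3K27me3 peak of these sequences with the lowest q-value lay inside the same place, at chrUn_CP007120v1:71712-73843, with a fold of 3.11 and a -log10 q of 105 in replicate 1 of the same condition. Among peaks on these sequences the highest fold was on chrUn_DS484751v1, 6.57 for H3R17me2 in replicate 1 of the 40-day-old controls, and 6.21 and 5.95 for H3K27me3 in the 2 libraries of 40-day-old controls.

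Of the unplaced sequences, chrUn_CP007120v1 held the most peaks, 11 of H3R17me2 in 3 lists and 22 of H3K27me3 in 5 lists. A region at chrUn_CP007120v1:36191-37567 was under a peak in 8 lists, with a q-value under 0.05 in all 8. Its fold was 1.86 in 1 library of 40-day-old mutants, 2.18 in 1 of 40-day-old controls and 1.78 in 1 of 3-day-old controls for H3R17me2. For H3K27me3 it was 2.04 in 1 library of 40-day-old mutants, 2.44 and 2.02 in 40-day-old controls, 1.74 in 1 library of 3-day-old mutants and 2.05 in 1 of 3-day-old controls. A region at chrUn_CP007120v1:2048-9094 was also under a peak in 8 lists, with folds of 3.55 for H3R17me2 and 3.50 for H3K27me3 in replicate 1 of the 40-day-old controls and of 1.51 to 1.78 in the 6 others. No gene is named on unplaced sequences, since the reference tables used here do not pair their names with an annotation. Genes there, rRNA genes among them, were thus not looked up.

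On Y, peaks gathered in a few places. A q-value under 0.05 was reached by 15 of 70 Y peaks of H3R17me2 and by 47 of 82 of H3K27me3. Of the 152 Y peaks, 46 (30.3%) overlapped the span of 24 Su(Ste) copies at chrY:869892-1040412, in all 8 lists that held Y peaks. Likewise, 46 (30.3%) overlapped the block of 57 pseudogenes at chrY:3024149-3376984, also in all 8 lists. The Su(Ste) span is 170.5 kb long and the pseudogene block 352.8 kb, out of 3.67 Mb of Y. The same number of peaks thus lay in a shorter stretch at Su(Ste). A place under a peak in several lists counts once per list in these shares, which were not tested. The second, smaller Su(Ste) group at chrY:2559809-2595311, with 3 copies, held none. The 47 merged Y regions spanned 84.3 kb, and 26 of them held peaks of both marks, 14 of H3R17me2 alone and 7 of H3K27me3 alone. By contrast, 19 of the 47 were found in 1 list only.

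The large fertility genes of Y, and the smaller single-copy genes named with them, had no peak. None of kl-2, kl-3, kl-5, ORY, CCY, PRY, Ppr-Y, WDY, ARY, FDY, Pp1-Y1 and Pp1-Y2 was touched in any of the 16 lists, over gene bodies of 0.954 to 248 kb. The 5 annotated loci named Mst77Y were not touched themselves, but 8 peaks, 1 in each of the 8 lists with Y peaks, overlapped the span of those loci at chrY:3284939-3354870. Of 23 protein-coding Y genes 1 had a peak in its body, CG45764, in all 8 lists with Y peaks. The overlap was smaller with H3R17me2, 0.248% of the Y bases under its merged peaks, than with H3K27me3, 1.88%. CG45764 lies within the Mst77Y span, in a region that matched Mst77Y-4. Su(Ste) copies themselves were overlapped in 5 lists and 4 of the 27 copies, with folds of up to 2.05. Copies of hoppel, a small DNA transposon that is also found within Su(Ste) repeats, were overlapped in 8 lists and 6 of 57 copies. Pseudogenes were overlapped in 8 lists and 6 of 62.

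Su(Ste) copies, hoppel copies and pseudogenes took a larger share of the Y sequence under peaks than of Y as a whole, and other transposable elements, satellite runs and gene bodies a smaller one. Su(Ste) copies took 4.19% of the Y bases under H3R17me2 peaks and 4.69% of those under H3K27me3 peaks, against 0.992% of Y. Hoppel copies took 6.53% under H3R17me2 and 8.70% under H3K27me3 peaks, against 2.50% of Y, and pseudogenes 5.77% and 6.15%, against 1.18%. Bodies of protein-coding genes, mostly introns of the large fertility genes, took 0.248% under H3R17me2 and 1.88% under H3K27me3 peaks, against 30.2% of Y. Other annotated transposable elements took 0.507% under H3R17me2 peaks and none under H3K27me3 peaks, against 3.14% of Y. The GC content was 41.6% under H3R17me2 and 42.9% under H3K27me3 peaks, against 39.4% of Y. Runs of 2 or more tandem copies of the satellite units AAGAG or AATAT or AAGAC or AATAC, in any phase and on either strand, took 0.0807% and 0.0280% under H3R17me2 and H3K27me3 peaks, against 0.339% of Y. These shares describe merged peaks that share most of their places, so they were not tested.

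**Figure D4:**
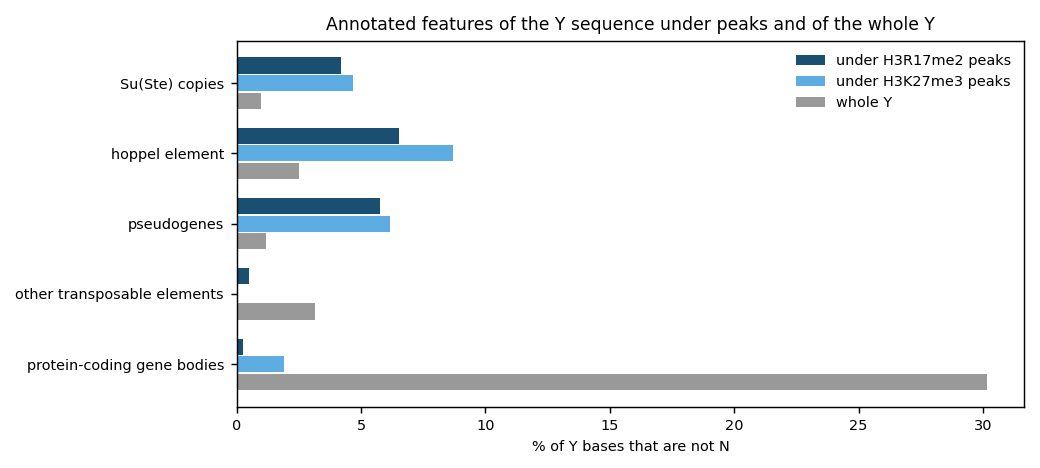
Share of the Y bases that are not N in 5 kinds of annotated feature, under merged H3R17me2 peaks, under merged H3K27me3 peaks and over the whole Y, in percent. Su(Ste), hoppel and pseudogene bars are longer under peaks of both marks, and the bar of protein-coding gene bodies is longest for the whole Y, 30.2%.

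The sequence under Y peaks was less often repeated than other Y sequence. Among 500 bp windows of Y, those with at least 50% of their length under a peak had a median of 7 matches in the assembly (164 windows), against 12 for windows with no peak (6445 windows). A match covered at least 80% of the window at 90% identity, and a window's match to itself counts. At least 1 further match was found for 65.9% of the windows under a peak and for 86.3% of those with none, and 33.5% and 52.5% matched a place on the assembled chromosomes.

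Among the Y regions found in 7 or more lists, which were chosen after their values were seen, the 3 within the Su(Ste) span had the highest folds. The hoppel region at chrY:882470-885759 overlaps an annotated hoppel copy and matched all 27 Su(Ste) copies of Y. Its H3R17me2 fold was 2.13 in 1 of the 40-day-old control libraries, 1.60 in 1 of the 3-day-old mutants and 1.56 in 1 of the 3-day-old controls. Its H3K27me3 fold was 1.55 in 1 library of 40-day-old mutants, 2.17 and 2.16 in 40-day-old controls, 1.46 in 1 library of 3-day-old mutants and 1.53 in 1 of 3-day-old controls. Values of the 40-day-old control libraries were thus the highest with each mark, in the libraries that had a peak there.

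The region at chrY:955762-959966, which lies 1448 bp from Su(Ste):CR40820, was also highest in 40-day-old controls. Its H3R17me2 fold was 2.09 in the 40-day-old control library, 1.69 in the 3-day-old mutant library and 1.73 in the 3-day-old control library that had a peak. Its H3K27me3 fold was 1.43 in the 40-day-old mutant library, 2.67 and 2.33 in 40-day-old controls, 1.56 in the 3-day-old mutant library and 1.66 in the 3-day-old control library. At chrY:924508-925501, the region shown above, the H3R17me2 folds were 2.07 in the 40-day-old control library, 1.59 in the 3-day-old mutant library and 1.29 in the 3-day-old control library. The H3K27me3 folds there were 1.46 in the 40-day-old mutant library, 2.62 and 2.25 in 40-day-old controls, 1.48 in the 3-day-old mutant library and 1.53 in the 3-day-old control library. These folds were not tested. A q-value under 0.05 was reached in 8 of 8 lists at chrY:882470-885759 and at chrY:955762-959966, and in 5 of 8 at chrY:924508-925501.

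In the pseudogene block the folds were lower and closer together. At the CR46150 region they were 1.42 to 1.63 in 3 H3R17me2 lists and 1.30 to 1.64 in 5 H3K27me3 lists, and at the CR41423 region 1.35 to 1.46 in 3 H3R17me2 lists and 1.32 to 1.67 in 4 H3K27me3 lists. The region at chrY:3271243-3273471, which overlaps the pseudogene CR46152, had folds of 1.38 to 1.57 in 3 H3R17me2 lists and 1.45 to 1.60 in 4 H3K27me3 lists. The CR41423 region matched pira, a gene of the X chromosome, over 802 positions at 91% identity. The region at chrY:3287938-3290603, which overlaps CG45764, had folds of 1.60 to 1.85 in 3 H3R17me2 lists and 1.31 to 1.63 in 5 H3K27me3 lists. It matched Mst77F on 3L, which encodes a protein of sperm chromatin, over 1167 positions at 88.4% identity, and Mst77Y-4, its Y-linked relative, over 934 at 98.4%. The same region also matched Pka-R1 on 3L, over 1985 positions at 83.5%. At chrY:3145087-3148057, with no annotation inside, the folds were 1.27 to 1.65 in 3 H3R17me2 lists and 1.32 to 1.56 in 5 H3K27me3 lists. That region matched CG43291 on 3R over 3104 positions at 92.2% identity. A q-value under 0.05 was reached there in 2 of 8 lists. It was reached in 2 of 8 lists at the CR46150 region and in 2 of 7 at the CR41423 region. At the CR46152 region it was reached in 4 of 7 lists, and at the CG45764 region in 3 of 8.

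**Figure D5:**
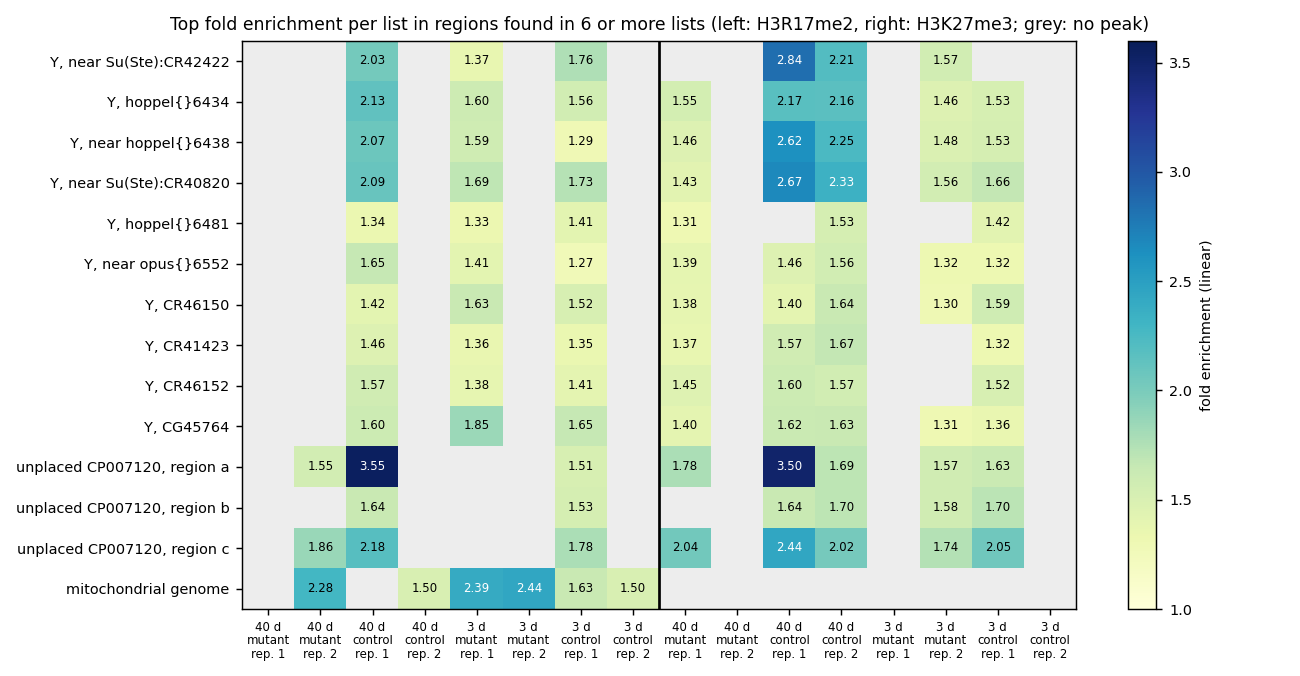
Top fold enrichment of each list (columns) in the Y, unplaced and mitochondrial regions found in 6 or more lists (rows, named by the annotated feature they hold or lie near; hoppel{} marks copies of the hoppel element); grey cells had no peak. The same libraries have peaks in most Y rows, with folds of up to 2.84, with the highest values in the Su(Ste) span and near it, while the mitochondrial row is filled in 6 H3R17me2 libraries and in no H3K27me3 library.

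The mitochondrial genome, whose DNA is not wrapped in histones, was listed only with H3R17me2. In 40-day-old mutants 0 and 10.0 kb lay under H3R17me2 peaks, and in 40-day-old controls 0 and 0.836 kb. In 3-day-old mutants the lengths were 15.0 and 14.9 kb, and in 3-day-old controls 3.29 and 14.8 kb. A single peak spanned 14.8 to 15.0 kb of the 19524 bp genome in 3 of the 4 libraries of 3-day-old flies, with folds of 1.5 to 2.44 and a -log10 q of up to 64.6. All 8 H3K27me3 lists had none. The 40-day-old and 3-day-old H3R17me2 lengths overlapped. In windows of 2 kb, 3 mitochondrial windows had less covered length in all 4 libraries of 40-day-old flies than in all 4 of 3-day-old flies, and no window of 5 kb did. Over all 72705 windows of 2 kb, 1.51% were called in that contrast. The share of mitochondrial reads in each input library was not analysed here.

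Where both marks of a condition had peaks on these sequences, their places were shared to very different degrees. The Jaccard index, shared length over joint length, of the H3R17me2 and H3K27me3 lists of one condition and replicate number was 0.455 in replicate 1 of the 40-day-old controls and 0.203 in replicate 1 of the 3-day-old controls. It was 0 in the other 6 pairs, 2 of them with an empty H3K27me3 list. On the assembled chromosomes it was 0.202 to 0.397. The mean was 0.0822 ± 0.167 here and 0.293 ± 0.0627 on the assembled chromosomes (SD, n = 8 pairs), lower in 7 of 8 pairs (adjusted exact permutation p = 0.0365). In the 2 pairs with an empty list the index was 0 by construction. Over the other 6 pairs the mean was 0.110 ± 0.188 here and 0.277 ± 0.0551 on the assembled chromosomes (SD), without a call (adjusted exact permutation p = 0.125), so the call rested on pairs whose value was fixed. It also ended on leaving out any of 14 of the 16 libraries, and the difference turned, to 0.06, when only peaks below a q-value of 0.05 were kept.

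Across replicate numbers, lists of different marks could still share places. The H3R17me2 library of replicate 1 and the H3K27me3 library of replicate 2 of the 40-day-old controls shared 66.7 kb, which was 50.9% of the H3R17me2 and 79.4% of the H3K27me3 length. Their Jaccard index was 0.45. The test above paired lists by replicate number, so its p-value depends on that pairing, and other pairings were not tested. The 2 H3K27me3 libraries of 40-day-old controls shared 61.9 kb, 66.3% of replicate 1 and 73.7% of replicate 2. Of 181 merged regions over all these sequences, 76 held peaks of both marks, 60 of H3R17me2 alone and 45 of H3K27me3 alone, and 85 were found in 1 list only.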

How the data were processed

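The data were 16 ChIP-seq libraries, 8 for each mark, with 8 inputs. Per the labels and the study's methods, the authors trimmed reads with Trim Galore 0.6.0, aligned them to dm6 with Bowtie2 2.5.1, removed duplicates with Picard, used SAMtools 1.19 and called broad peaks with MACS2 2.2.7.1, deposited as 1 list per library. The fold enrichment of a peak is the ratio to input that the authors deposited. The -log10 p and -log10 q values are also as the authors deposited them, and q-values were taken back from the -log10 q scale. The lists hold no counts, so the depth of each library is unknown and no interval or floor is given. Per the study's reporting summary, peaks were called with a cutoff on p, not on q, and with a minimum length of 500 bp. The shortest peak was 500 bp, and the lowest -log10 p in the lists was 1.0. Which input went with which library is not given in the sources used here.

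Peaks were used as listed and overlapping ones merged for lengths. RefSeq dm6 gave sequence and lengths, the Ensembl annotation of the same assembly gave genes and elements of Y, and BLAST+ 2.17.0 gave matches. Python 3.11.15, NumPy 2.4.6, pandas 2.3.3 and matplotlib 3.10.9 were used. Libraries were compared by two-sided exact permutation tests, with Benjamini-Hochberg adjustment over 3 tests of marks, 8 of age and genotype and 7 against the assembled chromosomes. The smallest possible p was 0.000155 for 8 against 8 libraries and 0.00781 for 8 paired lists. The tests returned the built-in values in 11 of 11 checks on simulated data. Alternatives varied the q-value, the number and length of peaks, the sequences, the windows, the replicate block and the libraries.

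The sequences, tests and gene lists were chosen with earlier results of these data known. Named genes were the fertility and other single-copy Y genes listed above, Su(Ste) and Mst77Y, and rRNA genes. The Y annotation used held no rRNA gene, and unplaced sequences could not be searched for them. Regions were to be those under a peak in all 8 lists of a mark, but there were none, so those in most lists were taken instead. Sequences were to be named for a contrast where groups did not overlap, but none did. The mitochondrial genome was set apart after its values were seen.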

Additional observations from a re-analysis of the deposited data

Results flagged for a closer look

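Single libraries stood far from the others of their group in 7 of the 42 groups of 4 to 8 libraries looked at, by Dixon's criterion, which flags about 5% of groups by chance; the groups overlap. Of H3R17me2, replicate 1 of the 40-day-old controls stood apart with 95 peaks among all 8 libraries and among the 4 of 40-day-old flies, with 131 kb covered among the 4 of 40-day-old flies, and with a median fold of 1.73 among the 4 controls. Replicate 2 of the 3-day-old mutants stood apart with a median fold of 2.03, over 2 peaks, among the 4 of 3-day-old flies and among the 4 mutants. Replicate 1 of the 3-day-old mutants stood apart with 89.3 kb covered among the 4 mutants. No H3K27me3 group was marked this way.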

How the results depend on the processing

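Alternatives turned or ended these results; the cause was not tested unless the setting itself leaves fewer lists. With q-values under 0.05, the covered difference between H3R17me2 and H3K27me3 was -10.8 kb, that between 40-day-old and 3-day-old flies for H3R17me2 6.24 kb, the excess over the assembled chromosomes -0.0996 in fold and 0.172 percentage points in density for H3R17me2 and 0.0640 in Jaccard index, and the H3K27me3 fold excess 0.295 without a call. With equal numbers of top peaks, the H3R17me2 fold excess (0.160) and the Jaccard difference (-0.0270) lost their calls. With Y alone, the covered difference between marks was -1.50 kb and the H3K27me3 fold difference with age 0.0516; the fold excess (0.161 for H3R17me2, 0.122 for H3K27me3), the excess of peaks under the q threshold (23.4 and 38.4 percentage points) and the Jaccard difference (-0.136) lost their calls, in fewer lists. Without Y, the H3R17me2 covered difference with age was 9.68 kb. With the mean for the median, the H3K27me3 fold difference with age was 0.0667. With peaks of at least 1000 bp, the difference in peaks between marks was 0.5. Without the mitochondrial genome, a setting chosen after seeing the data, the covered difference between marks was -1.32 kb, that with age for H3R17me2 5.69 kb and the H3R17me2 fold difference between mutants and controls -0.0961. Over the pairs with peaks in both lists, also chosen after seeing the data, the Jaccard difference was -0.167 without a call. Windows of 2 kb gave 3 H3R17me2 calls with age in place of 0.

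Leaving out 1 library at a time, the differences between marks ran from -13.2 to 2.11 peaks and from -5.95 to 13.5 kb. The H3K27me3 covered difference ran from 1.97 to 33.1 kb with age and from -61.2 to -30.1 kb with genotype, and its fold difference with age ran from -0.150 to 0.0962. For H3R17me2, the covered difference ran from -32.2 to 9.91 kb with age and from -36.1 to 6.0 kb with genotype, and the fold difference from -0.166 to 0.0474 with age and from -0.126 to 0.0930 with genotype. The fold excess over the assembled chromosomes ran from 0.102 to 0.204 for H3R17me2 and from 0.246 to 0.348 for H3K27me3, the H3K27me3 excess of peaks under the q threshold from 47.3 to 57.2 percentage points and the Jaccard difference from -0.277 to -0.185. The H3K27me3 calls on fold and on q-values ended whenever 1 of their 6 lists was left out, since 5 lists cannot reach the threshold.

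By correlation the replicate numbers did not clearly pair the libraries: of 28 correlations between same-numbered deviations, from -0.184 to 0.123, 1 was above 0.1. The 6 within H3R17me2 were low but all positive, from 0.0321 to 0.123. The 6 within H3K27me3 ran from -0.184 to 0.1 and the 16 between marks from -0.0355 to 0.089. On these sequences the H3R17me2 lists nevertheless differed by replicate number. Replicate 1 had more peaks than replicate 2 in every condition and averaged 77.7 kb against 16.3 kb. A replicate block changed no call, and the H3K27me3 covered difference between mutants and controls stayed at -40.8 kb with an exact permutation p of 0.222 (0.952 adjusted). The lists hold no read counts, so what depth limits is unknown.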

Other observations

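Some unplaced places recurred with one mark. The region chrUn_DS483709v1:13446-17824 was under an H3R17me2 peak in 5 of 8 lists, in replicate 2 of the 40-day-old mutants and controls, in both 3-day-old mutant libraries and in replicate 1 of the 3-day-old controls, and in no H3K27me3 list. Its top fold was 1.63 and no list gave it a q-value under 0.05. On an unlocalized Y sequence, chrY_CP007111v1_random:26048-28148 was also under an H3R17me2 peak in 5 lists and under no H3K27me3 peak, with a top fold of 1.30 and no q-value under 0.05. The region chrUn_DS485462v1:277-954 lay the other way, with H3K27me3 peaks in 4 lists and an H3R17me2 peak in 1, a top fold of 3.16 and q-values under 0.05 in all 5. These places were chosen after their values were seen and were not tested.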
